A study of Mus musculus with 4 samples.

Results

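The CREB and ATF genes encode leucine zipper transcription factors that bind DNA as dimers. The genes chosen by name were Creb1, Crem, Atf1, Atf2, Atf4 and Atf6, and their members here are all probe sets of the array that are annotated with 1 of these symbols and no other. This gave 9 probe sets of 5 genes, of 8251 genes with such a probe set, out of 10833 probe sets with a single gene symbol and 12488 on the array. Creb1 had 3 probe sets, Crem and Atf2 had 2 each, and Atf4 and Atf6 had 1 each. Atf1 had none, because the 1 probe set that carries its symbol also carries that of a pseudogene, so no value is given for it.

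The tissue was dentate gyrus, a part of the hippocampus, in 4 samples from young male C57BL/6J mice. All were handled and had no other treatment. The RNA of 1 sample each was extracted at 1, 2, 4 and 6 h, counted from the final shock that other mice received, so each hour is 1 array of unshocked controls and has no replicate. The number of mice in a sample is not stated in the labels. Values below are linear array intensities in the order 1, 2, 4 and 6 h. Levels of different probe sets are not compared, since each probe set has its own sensitivity.

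CREB1, CREM and ATF1 form a subfamily that binds the cAMP response element (CRE), a palindrome with the letters TGACGTCA. In neurons, cAMP- and calcium-activated kinases phosphorylate CREB, which then recruits the coactivator CBP and drives activity-dependent genes. CREB-dependent transcription is widely studied as a step in long-term memory in the hippocampus. The Crem gene also encodes ICER, a short repressor made from an internal promoter that cAMP induces. ATF2 pairs with JUN and is activated by the stress kinases JNK and p38. ATF4 is the effector of the integrated stress response and is made mainly by regulated translation of an existing RNA. ATF6 is an endoplasmic reticulum membrane protein that is cut to release an active factor when unfolded proteins accumulate.

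The CRE as it stands in the promoters of measured genes is shown with its surroundings for 4 genes that passed the intensity filter, each within the 250 bases before the transcription start. The sequences are from RefSeq, build GRCm38.p6, each on the minus strand and written 5′ to 3′, and capitals mark the CRE.
Sst, chr16:23890869-23890908: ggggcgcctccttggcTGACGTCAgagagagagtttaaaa
Scg2, chr1:79440071-79440110: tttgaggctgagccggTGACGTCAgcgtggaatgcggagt
Btg2, chr1:134079298-134079337: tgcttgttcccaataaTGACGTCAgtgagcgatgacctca
Dusp1, chr17:26508592-26508631: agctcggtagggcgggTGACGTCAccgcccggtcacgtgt

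A fixed floor and filter decide which of the members could be tested. A floor was placed at the 20th percentile of all intensities, which is 38.3, and lower readings were raised to it, and a probe set was tested if its mean log2 intensity reached the 40th percentile, an intensity of 120.0. Of 10833 probe sets 6500 passed, among them 4 members: 1 probe set each of Crem, Atf2, Atf4 and Atf6. The other 5 members, all 3 of Creb1 and the dimmer ones of Crem and Atf2, did not pass and have no test.

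None of the 4 tested members had a called slope. A line of log2 intensity on the hour was fitted with limma across all tested probe sets, and 0 of 6500 (0.0%) had a Benjamini-Hochberg adjusted p under 0.05, the lowest being 0.496. At an unadjusted p under 0.05 there were 136 (2.09%), of which Atf6 was 1. The p values rest on the scatter of 4 arrays around a line, which limma moderates with that of tested probe sets of similar intensity. The prior has 9.78 degrees of freedom at the median, beside 2 residual ones. An hour cannot be told apart from the array that stands for it.

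**Figure D1:**
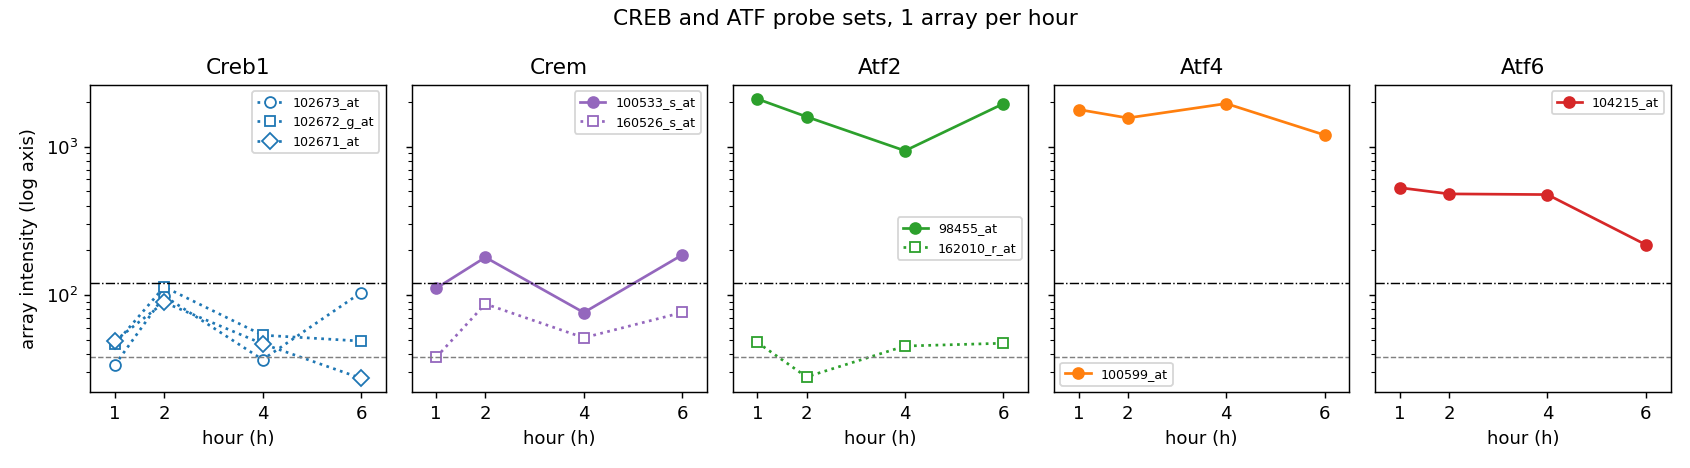
Array intensity (log axis) of the 9 member probe sets against the hour (h), 1 array per hour and 1 panel per gene. Filled symbols with solid lines are tested probe sets, open symbols with dotted lines are untested; the dashed line is the floor of 38.3 and the dash-dotted line the filter at 120.0, which applies to the mean. The Creb1 and Crem probe sets are high at 2 h, Atf2 98455_at is lowest at 4 h, and Atf4 and Atf6 are lowest at 6 h.

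Creb1, which encodes the CRE-binding activator CREB, was dim on all 3 of its probe sets, which were designed from a single transcript record. Probe set 102673_at read 33.7, 98.2, 36.6 and 103.7, probe set 102672_g_at read 46.5, 113.3, 53.5 and 48.8, and probe set 102671_at read 49.0, 89.0, 46.8 and 27.4. All 3 stood higher at 2 h than at 1 h and 4 h, but they parted at 6 h. There 102673_at had its highest value, 102671_at its lowest, and 102672_g_at a value close to those of 1 h and 4 h.

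In fold terms the 2 h array read 2.91, 2.44 and 1.82 times the 1 h array on the 3 Creb1 probe sets, and 2.68, 2.12 and 1.9 times the 4 h array. At 6 h they read 2.83, 0.912 and 0.585 times the 4 h array. A span over 2-fold between the highest and lowest hour was seen in all 3 (2.71, 2.44 and 2.32 with the floor). Among untested probe sets of the array 52.9% had such a span, so it is common at this brightness. The highest hour was 2 h for 21.1% of untested probe sets. It was the same hour on all 3 probe sets in 8.95% of the 324 genes that had 3, and Creb1 was not among these because of 102673_at. With the floor raised to the 30th percentile the spans shrank to 1.41, 1.55 and 1.21. Without the 2 h sample, 102672_g_at spanned 1.15-fold and 102671_at 1.28-fold.

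Crem, which encodes both activators and the repressor ICER, had its high and low hours in alternation. Its brighter probe set, 100533_s_at, read 110.7, 179.2, 76.0 and 186.1, and the dimmer one, 160526_s_at, read 37.9, 86.9, 51.4 and 76.1. On both, the 2 h and 6 h arrays were above the 1 h and 4 h arrays, and neither is assigned to an activator or repressor form here. The probe sets were designed from the same record, and the suffix _s_at marks probes shared between transcripts.

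The brighter Crem probe set spanned 2.45-fold, from 4 h to 6 h, and the dimmer one 2.27-fold with the floor. The slope of the brighter one was 0.05 ± 0.18 log2 per h (SE, n = 4; limma adjusted p = 0.99995). Its sign rested on the 6 h sample, without which the slope was −0.24 ± 0.31. The mean log2 of the probe set, 7.02, lies just above the filter at 6.91. With 1 probe set per gene the same percentile gave a higher filter, and Crem was then not tested.

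On all 5 probe sets of Creb1 and Crem the 2 h value was above those of 1 h and 4 h, a pattern picked after the values were seen. It occurred in 26.0% of untested and 29.5% of tested probe sets, and probe sets of the same gene share their RNA and their transcript record. The highest hour of 102673_at and 100533_s_at was 6 h. Relative to the mean of the other hours, the 2 h array was higher by 0.88, 1.19 and 1.0 log2 units for Creb1 and by 0.63 and 0.71 for Crem. These are the values of 1 array, and 4 of the 5 probe sets did not pass the filter.

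Atf2, the partner of JUN, was well above the filter on 98455_at, with 2095.5, 1588.9, 936.7 and 1946.5. The value was lowest at 4 h and close together at 1 h and 6 h. The 1 h array read 2.24 times the 4 h array, and the 6 h array 2.08 times. The mean was 1642 ± 516 (SD, n = 4), and the SD of the log2 values, 0.52, was larger than that of 84.9% of the tested probe sets.

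The slope of Atf2 on the hour was −0.05 ± 0.09 log2 per h (SE, n = 4; limma adjusted p = 0.99995), since the course goes down and then up. Single arrays set its sign: the slope was 0.07 without the 1 h sample, 0.01 without the 4 h sample and −0.39 ± 0.09 without the 6 h sample. Leaving out the 4 h sample also brought the span from 2.24-fold to 1.32-fold. The second Atf2 probe set, 162010_r_at, read 47.8, 28.0, 45.2 and 47.2. It lay near or under the floor at every hour and was lowest at 2 h, not at 4 h, so it does not show the 4 h value of the brighter one. Of 1675 genes with 2 probe sets, 27.7% had the lowest value of both at the same hour.

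Atf4, the effector of the integrated stress response, read 1777.0, 1558.7, 1949.1 and 1196.2 on its probe set 100599_at. The highest value was at 4 h and the lowest at 6 h, a span of 1.63-fold. The mean was 1620 ± 325 (SD, n = 4). Its slope came to −0.08 ± 0.07 log2 per h (SE, n = 4; limma adjusted p = 0.99995), and its SD in log2 units, 0.31, exceeded that of 57.4% of the tested probe sets. Without the 6 h sample the slope was 0.06 ± 0.09 and the span 1.25-fold.

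The promoter of Atf4 is shown because the core of the CRE, TGACG or its complement CGTCA, occurs in it 2 times, and the full CRE does not. It is RefSeq sequence of build GRCm38.p6, chr15:80254934-80255233, plus strand, from 250 bases before to 50 after the start, with each CGTCA in capitals.
Atf4: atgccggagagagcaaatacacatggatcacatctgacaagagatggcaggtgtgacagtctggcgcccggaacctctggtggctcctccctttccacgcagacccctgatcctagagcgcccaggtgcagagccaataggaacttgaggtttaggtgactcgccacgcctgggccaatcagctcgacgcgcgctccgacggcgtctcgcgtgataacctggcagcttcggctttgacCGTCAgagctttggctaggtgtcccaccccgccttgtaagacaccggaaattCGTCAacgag
Searched on both strands, TGACG was found in 20.8% and TGACGTCA, which contains it, in 1.79% of the 32851 promoter windows of 300 bases. The windows of Creb1 and Atf2 held neither. A match of letters is not evidence of binding.

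Atf6, the endoplasmic reticulum stress sensor, read 528.0, 479.6, 474.5 and 217.8 on its probe set 104215_at. It was lower at each step, as were 2.43% of tested probe sets, but the first 3 values lay within 1.11-fold and nearly all of the difference was between 4 h and 6 h. The 4 h array read 2.18 times the 6 h array and the 1 h array 2.42 times. The mean was 425 ± 140 (SD, n = 4).

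The slope of Atf6 was −0.23 ± 0.09 log2 per h (SE, n = 4). It was steeper than that of 96.7% of the tested probe sets, yet the limma adjusted p was 0.99995, with an unadjusted p of 0.0192. The 6 h sample decided the value. Without it the slope was −0.05 ± 0.11 (unadjusted p = 0.701) and the span 1.11-fold, while without any other sample the slope stayed between −0.28 and −0.24. Markers of several other cell types and regions were also low on that array. The summed intensity of 8 tested endothelial and mural cell markers, of 13 listed, was 3159, 3144, 3042 and 2295, with the smooth muscle actin gene Acta2 at 195.6, 246.9, 221.1 and 40.6. Of these 8 markers 5 were lowest at 6 h and 1 was highest there. Acta2 had the widest span of them, while Eng, at 973.7, 849.6, 1022.1 and 826.9, spanned 1.24-fold. The sum of 5 tested thalamus and habenula markers, of 9 listed, was 2757, 2664, 3054 and 2198, with the transcription factor gene Tcf7l2 at 411.8, 622.5, 291.3 and 127.5. Another Tcf7l2 probe set, untested at 82.0, 83.0, 117.5 and 109.0, was not low at 6 h. Of the 5 markers 3 were lowest at 6 h, whereas Prkcd, at 702.2, 474.1, 460.1 and 705.0, was highest there. Another tested Prkcd probe set, at 413.2, 486.2, 587.0 and 490.7, was highest at 4 h and lowest at 1 h. The sum of 8 tested markers of CA field pyramidal and mossy cells, of 14 listed, was 8157, 8674, 9719 and 7786. In list medians, log2 at 6 h minus the other hours was −0.53 for vascular, −0.52 for thalamus and habenula, −0.2 for CA field and −0.53 for choroid plexus markers, beside 0.01 over all tested genes. For choroid plexus the 1 h array was as low, at −0.55. The other marker lists were not low at 6 h. They stood at 0.11 for granule cells and for interneurons, 0.16 for astrocytes, 0.03 for oligodendrocytes and 0.02 for microglia. The 1 tested blood cell marker stood at 0.38. The part of these cell types in the Atf6 value was not tested. In tissue RNA, fewer cells of a type and less RNA per cell cannot be told apart.

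**Figure D2:**
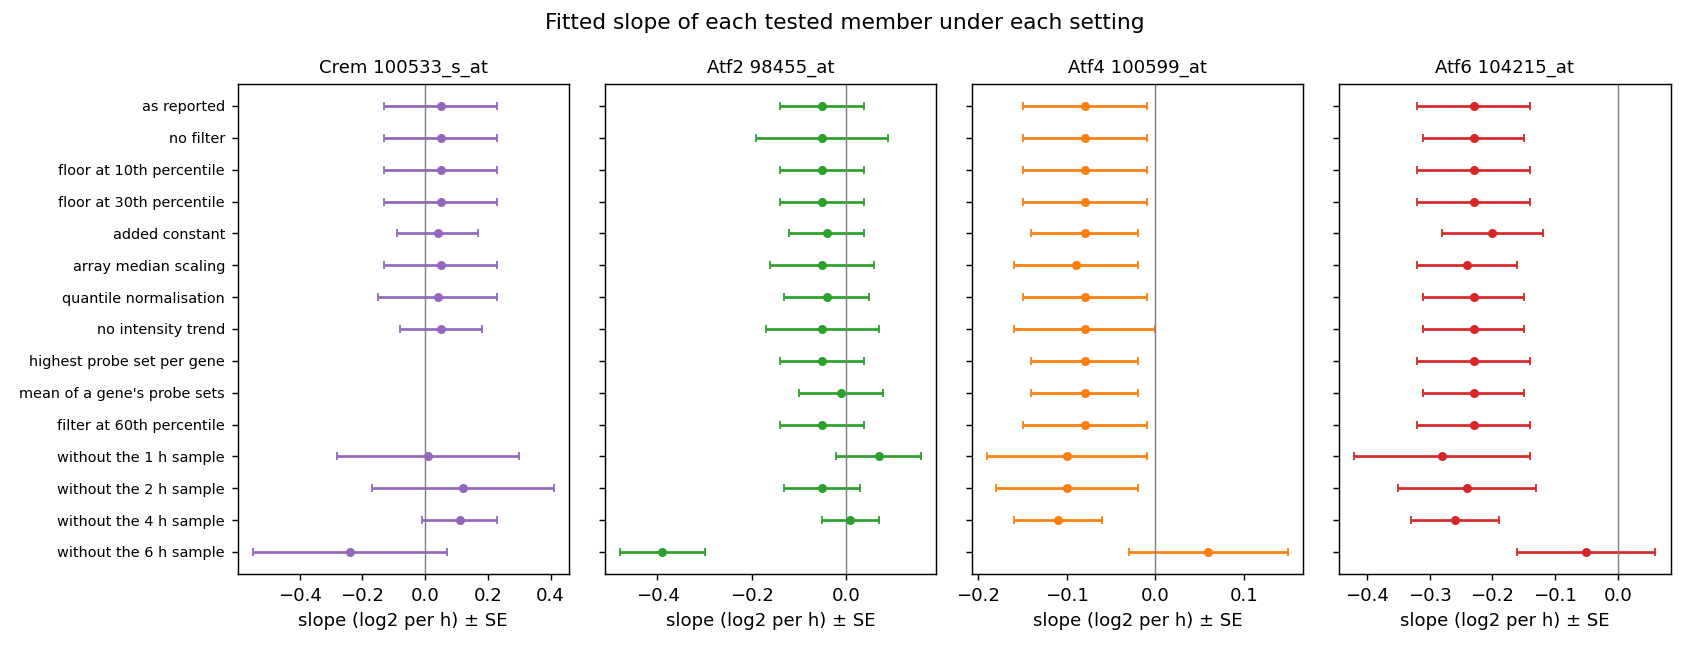
Fitted slope of log2 intensity on the hour (log2 per h, points) with its SE (bars) for the 4 tested members, 1 panel each with its own scale, as reported and under each other setting on the same time scale. The Atf6 slope stays below 0 in every setting shown and is −0.05 without the 6 h sample, while the slopes of Crem, Atf2 and Atf4 change sign when single samples are left out. Crem has no point where it did not pass the filter.

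Over the members as a set, spans over 2-fold were seen in 3 of the 4 tested probe sets (Crem, Atf2 and Atf6), beside 21.6% of all tested probe sets, and in 4 of the 5 untested ones, beside 52.9%. The low or high hour differed between genes: 4 h was lowest for Crem 100533_s_at and Atf2, as for 28.4% of tested probe sets, and 6 h was lowest for Atf4 and Atf6, as for 23.8%. Without the 4 h sample, spans over 2-fold remained in 1 of the 4 tested members, beside 12.1% of all tested probe sets. With the mean of each gene's probe sets it was 1 of 3 tested member genes (Atf6), beside 17.7% of all tested genes. The choroid plexus gene Ttr, at 81.3, 233.6, 2408.1 and 191.2, stood out at 4 h as well. The summed intensity of 4 tested choroid plexus markers, of 12 listed, was 2460, 5294, 6312 and 3173. Of the 4, 3 were highest at 4 h, whereas Igf2, at 1849.1, 4402.2, 2954.6 and 2520.8, was highest at 2 h. The part of choroid plexus in the 4 h values was not tested.

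**Figure D3:**
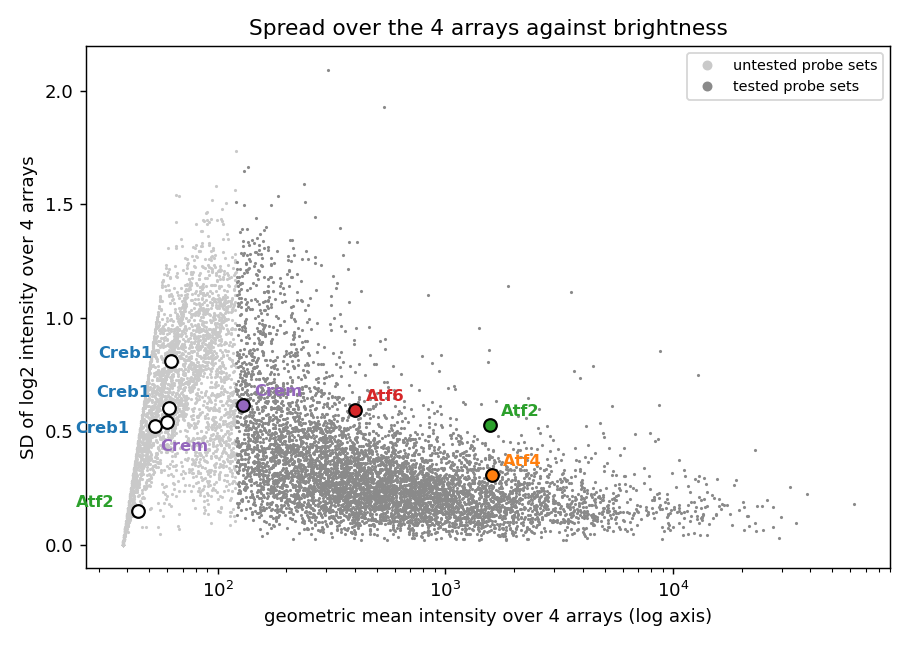
SD of log2 intensity over the 4 arrays against the geometric mean intensity (log axis), both with the floor applied; each small point is a probe set, tested (dark grey) or untested (light grey), and large symbols are the members, filled where tested. At their brightness Atf2 (SD 0.52) and Atf6 (SD 0.59) lie towards the upper edge of the cloud, and Atf4 (SD 0.31) nearer its middle.

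The array also measured relatives of these factors, and none of the 11 tested genes of 22 listed had a called slope. Their median slope was −0.034 log2 per h, and 0.056 without the 6 h sample. Spans over 2-fold were seen in 4 of the 11, beside 19.9% of the 5523 tested genes that are not members, with the brightest probe set of each gene used. Ddit3, the stress-induced factor CHOP that is a target of ATF4, read 308.0, 313.8, 60.3 and 162.6. It was thus lowest at 4 h, where Atf4 was highest. Nfil3, a zipper repressor, read 253.1, 215.8, 266.1 and 52.9, and its second probe set, untested at 145.5, 83.0, 59.6 and 11.9, was also lowest at 6 h. Atf6b, the paralog of Atf6, was lowest at 1 h on both its probe sets (267.4, 740.9, 774.2 and 607.0, then 365.5, 448.9, 516.3 and 443.1). Atf6 was highest at that hour, but its 1 h value was only 1.11 times that of 4 h. The fourth with such a span was Atf3, an immediate early repressor, at 174.1, 201.2, 283.3 and 136.1. A second Atf3 probe set, untested at 155.2, 43.9, 61.6 and 83.2, was highest at 1 h instead of 4 h.

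Of the partners in the AP-1 complex, 9 of 15 listed genes were tested. Spans over 2-fold were seen in 2 (22.2%, beside 19.9% of tested genes that are not members): Junb at 378.6, 221.7, 94.5 and 379.2, and Fos at 180.2, 250.4, 118.6 and 161.4. Both were lowest at 4 h. Over the list, 3 of the 9 were lowest at 4 h, beside 28.4% of tested genes that are not members, and 4 were highest at 4 h, beside 32.6%. Nfe2l2, the oxidative stress factor NRF2, came next with 312.5, 318.1, 352.2 and 512.3. No slope was called in this list.

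In the CREB coactivator list, CBP (Crebbp) read 1203.8, 1339.1, 1016.3 and 1113.7, a span of 1.32-fold. It was 1 of 4 coactivator genes tested of 10 listed, and 0 spanned over 2-fold. The acetyltransferase Kat2b read 311.2, 227.7, 219.2 and 333.7, and Fhl1, whose product belongs to a family of LIM proteins with coactivator members, read 896.3, 1221.6, 858.3 and 1182.1. Of the 4, 3 were lowest at 4 h on their brightest probe set, beside 28.4% of tested genes that are not members. For Kat2b the 4 h value was close to that of 2 h, and for Fhl1 close to that of 1 h. The other Kat2b probe set, untested at 73.6, 19.6, 24.7 and 62.0, was lowest at 2 h. The other tested Fhl1 probe set, at 533.5, 444.4, 592.6 and 536.2, was instead highest at 4 h and lowest at 2 h.

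Kinases and phosphatases that act on CREB were tested at 17 genes of 36 listed, with 9 positive and 8 negative slopes, beside 50.2% positive slopes over the tested genes that are not members, and 0 called (0.0% of those genes). The lowest hour was 4 h for 9 of the 17, beside 28.4% of tested genes that are not members, and the highest was 4 h for 0, beside 32.6%. Pkia, an inhibitor of protein kinase A, read 2414.3, 2927.3, 1695.7 and 3798.4, and like Crem it was higher at 2 h and 6 h than at 1 h and 4 h. A second Pkia probe set, at 389.8, 411.8, 430.3 and 332.9, was instead highest at 4 h. The calcineurin subunits Ppp3ca (15470.3, 9066.3, 8880.4 and 10113.5) and Ppp3cb (1134.0, 561.9, 590.8 and 681.4) were highest at 1 h.

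The stress kinases that activate ATF2 had 9 tested genes of 12 listed, 3 of them (33.3%) with a span over 2-fold, beside 19.9% of tested genes that are not members, and 0 with a called slope. Map2k6, a kinase of p38, read 183.0, 199.1, 25.4 and 186.5, with its 4 h value under the floor, and a dimmer probe set (146.7, 83.6, 85.8 and 89.6) did not share that low value. The JNK scaffold gene Mapk8ip1 read 2195.8, 672.7, 1889.4 and 2020.9, and its second probe set, at 410.4, 256.4, 475.9 and 372.7, was also lowest at 2 h. Mapk12, a p38 kinase, read 137.0, 216.9, 382.5 and 221.7.

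Genes known as CRE targets gave 26 tested of 40 listed, with 12 positive and 14 negative slopes, a median slope of −0.016 log2 per h and 0 called, where the median of all 5527 tested genes was 0.0. Spans over 2-fold were seen in 8 (30.8%, beside 19.9% of tested genes that are not members), and the widest were those of Nfil3, Junb and the cyclin gene Ccnd1 (623.3, 255.0, 922.8 and 416.9). A second Ccnd1 probe set, at 198.4, 246.2, 140.5 and 231.3, was highest where the first was lowest.

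The full CRE stood in the promoter window of 5 of the 26 listed target genes that had a window, and the 4 of them that were tested varied little. Somatostatin (Sst), the interneuron peptide whose promoter is a standard CRE example, read 3603.5, 4223.2, 3193.9 and 3271.8, and the granin Scg2 read 1539.6, 1450.1, 1414.9 and 1455.9. The antiproliferative gene Btg2 read 1069.4, 853.2, 1412.3 and 1102.1, and the MAP kinase phosphatase gene Dusp1 418.2, 567.5, 605.1 and 442.5. Their spans lay between 1.09-fold and 1.66-fold, and the 2 h array was the highest for Sst alone. The untested gene of the 5, Th, read 10.2, 115.5, 175.2 and 34.6, a span of 4.57-fold with the floor. Spans over 2-fold were seen in 52.9% of untested and 21.6% of tested probe sets, so the filter favours genes that vary less. Over the array, 154 tested genes other than the members had the full CRE in a window. Of these 28 (18.2%) spanned over 2-fold, beside 19.9% of tested genes that are not members, 64 had a positive slope and 0 were called.

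Genes of the ATF4 and amino acid response were tested at 29 of 49 listed, with 11 positive and 18 negative slopes, a median slope of −0.01 and 0 called. Without the 6 h sample the median slope was 0.034. Spans over 2-fold were seen in 3 (10.3%, beside 19.9% of tested genes that are not members): Ddit3, Atf3 and Ddit4, an inhibitor of mTOR signalling that read 1061.7, 493.2, 978.5 and 1205.0. The lowest hour was 6 h, that of Atf4, for 12 of the 29, beside 23.6% of tested genes that are not members. A promoter match to TGATGNAA, letters of the C/EBP-ATF element, was found for 14 of 35 listed genes with a window. Of the 9 of these that were tested, 6 were lowest at 6 h and 0 were called. Among all 121 tested genes with the motif, members left out, 32 were lowest at 6 h and 62 had a positive slope. The motif occurs in 3.97% of all windows.

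For eIF2 kinases and the wider eIF2 pathway, 12 of 16 listed genes were tested, with 3 positive and 9 negative slopes and 0 called. Over the tested genes that are not members 50.2% of slopes were positive. Spans over 2-fold were seen in 3 (25.0%, beside 19.9% of those genes). The heme-regulated eIF2 kinase gene Eif2ak1 read 670.3, 414.9, 128.7 and 555.2. The eIF2 subunit gene Eif2s2 read 210.3, 183.9, 14.2 and 248.5, with 4 h under the floor, but its other probe set, at 62.3, 49.3, 134.7 and 151.1, was not low at 4 h. Dnajc3, an inhibitor of eIF2 kinases, read 395.9, 351.9, 145.4 and 316.7, and brighter ones of its other probe sets (333.1, 157.0, 307.9 and 341.5, then 239.3, 104.2, 355.5 and 208.1) were lowest at 2 h.

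For ATF6, the endoplasmic reticulum stress response element, which is CCAAT, then 9 bases of any kind, then CCACG, and to which ATF6 binds together with NF-Y, is shown in the promoters of 5 chaperone and folding genes. Sequences are RefSeq, build GRCm38.p6, written 5′ to 3′ on the strand of the gene, and capitals mark the element or its reverse complement.
Hspa5, chr2:34772009-34772059, plus strand: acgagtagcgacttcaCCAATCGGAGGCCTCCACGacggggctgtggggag
Hsp90b1, chr10:86705622-86705672, minus strand: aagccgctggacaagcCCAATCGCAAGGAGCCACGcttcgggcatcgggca
Pdia6, chr12:17266475-17266525, plus strand: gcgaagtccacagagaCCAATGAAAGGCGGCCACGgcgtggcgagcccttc
Canx, chr11:50325784-50325834, minus strand: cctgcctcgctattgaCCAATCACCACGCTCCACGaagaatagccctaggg
Creld2, chr15:88819504-88819554, plus strand: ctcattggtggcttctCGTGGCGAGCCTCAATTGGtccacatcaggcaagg
Searched on both strands, the element was found in 8 of 31 listed unfolded protein response genes with a window and in 0.119% of all windows.

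Of these promoters' genes, Hspa5, the chaperone BiP, read 2008.6, 1655.8, 1341.4 and 1473.5, and Hsp90b1, the chaperone GRP94, read 2715.7, 2733.8, 2474.8 and 1957.5. The calnexin gene Canx read 531.0, 646.0, 546.7 and 584.8, and Creld2, a secreted stress protein, 216.3, 282.5, 332.0 and 147.7. A second tested Canx probe set, at 238.5, 224.2, 352.2 and 316.0, was lowest at 2 h, where the first was highest. Hsp90b1 and Creld2 were thus lowest at 6 h, as Atf6 was, and Hspa5 at 4 h. The disulfide isomerase gene Pdia6 read 427.0, 294.1, 137.6 and 299.0 on its brightest probe set, lowest at 4 h, and 218.5, 130.5, 281.6 and 76.2 on its second, lowest at 6 h. Of the 7 tested genes with the element, 2 had a positive and 5 a negative slope, with a median of −0.1 log2 per h. Over the tested genes that are not members 50.2% of slopes were positive. The lowest hour was 6 h for 2 of the 7 and 4 h for 3, beside 23.6% and 28.4% of those genes.

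The whole unfolded protein response list had 29 tested genes of 41, with 12 positive and 17 negative slopes, a median slope of −0.034 and 0 called. Spans over 2-fold were seen in 6 (20.7%, beside 19.9% of tested genes that are not members). The isomerase gene Pdia3 read 449.5, 469.2, 219.4 and 169.5, with a slope of −0.32 ± 0.09 (SE, n = 4; limma adjusted p = 0.99995). The lowest hour was 6 h for 10 of the 29, beside 23.6% of tested genes that are not members, and the median of log2 at 6 h minus the other hours was −0.04, beside 0.01 over all tested genes.

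**Figure D4:**
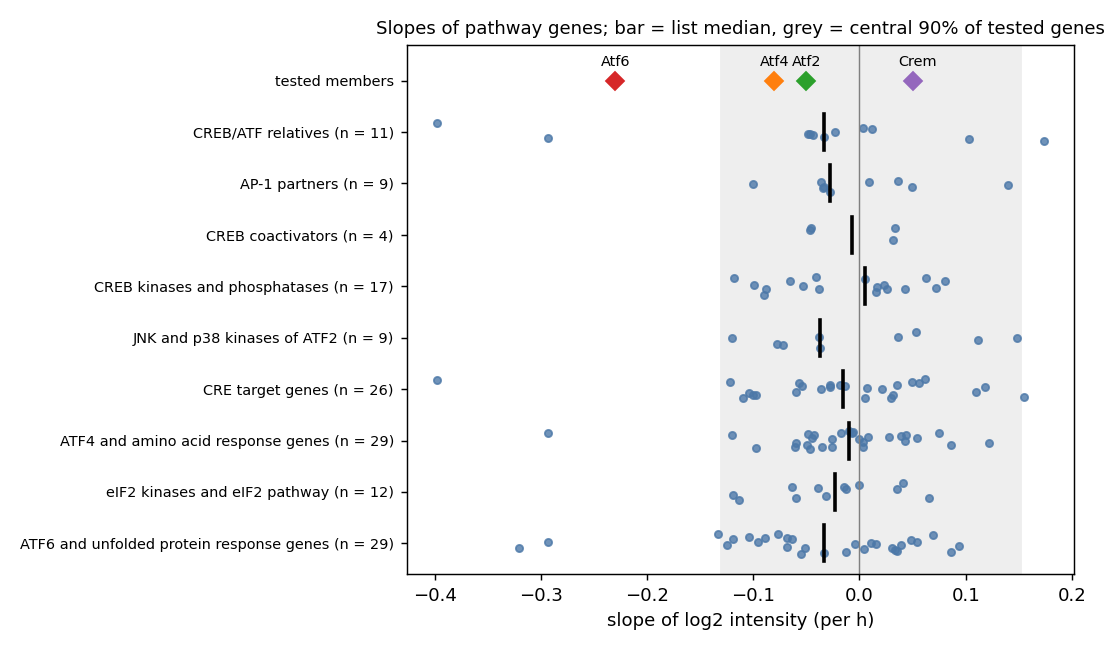
Slope of log2 intensity on the hour (per h) for the 4 tested members (diamonds) and for the tested genes of 9 pathway lists (dots, 1 per gene; the count is beside each name), with list medians as black bars and the central 90% of all tested genes, from −0.13 to 0.15, in grey. All list medians lie between −0.037 and 0.006, and Atf6, at −0.23, lies outside the grey range.

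Other genes followed the same courses closely, by the Euclidean distance over 4 log2 values, each centred on its mean. Nearest to Atf6 were Khdrbs1, an RNA-binding protein gene, at 257.0, 250.6, 222.8 and 98.2 (distance 0.16), and the histone demethylase gene Kdm1a at 274.8, 288.3, 271.9 and 134.6 (distance 0.19). Nearest to Atf2 were Daglb, a diacylglycerol lipase gene, at 408.7, 311.7, 186.9 and 408.1 (distance 0.08), and Srp19 of the signal recognition particle at 676.3, 494.0, 309.3 and 657.7 (distance 0.09). For Atf4 they were Tubgcp4 (distance 0.07) and Tmed3 (distance 0.08), and for Crem 100533_s_at they were Nr2f2 (distance 0.22) and Chmp4b (distance 0.24). Within a distance of 0.3 there were 15 probe sets for Atf6, 16 for Crem, 63 for Atf2 and 336 for Atf4, of 6499. The count was largest for Atf4, the tested member with the narrowest span (1.63-fold), so these counts are not compared between members. With 4 arrays no function is read from such likeness.

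As a check of the tissue, granule cell markers were present: Ncdn had a mean intensity of 34610 ± 2314 and Calb1 of 2632 ± 265 (SD, n = 4). Prox1, the transcription factor that defines granule cells, read 184.2, 153.5, 182.0 and 249.1. Of 14 granule cell genes listed, 8 had a probe set and 6 were tested, and their summed intensity, most of it Ncdn, ran from 38670 to 42740. Markers listed for neighbouring regions were present too: Rgs14, of CA field pyramidal cells, had a mean of 3482 ± 411, Bok of 1669 ± 402, and Calb2, listed for mossy cells and for thalamus and habenula, of 1051 ± 180.5 (SD, n = 4). Array medians over all probe sets lay between 184.8 and 212.8.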

How the data were processed

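RNA of 4 handled control samples was measured on oligonucleotide arrays. The authors deposited linear intensities, 1 for each probe set on each array. How they made them (scanner, software, scaling) is not given in the labels. Leaving out the top and bottom 2% of probe sets, all arrays averaged 500.3, from which a scaling of whole arrays was inferred; the deposited values were used as they stand. Gene symbols came from GEO's platform annotation, updated by identifier for 10817 of 10833 probe sets through a RefSeq gene table (GRCm38.p6). Promoters came from RefSeq windows that matched 4 of 6 genes.

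After the floor, log2 and the filter, limma 3.58.1 in R 4.3.3 fitted the hour as a line (eBayes with intensity trend, residual degrees of freedom 2, prior 9.78 at the median). The fit ran on probe sets because each probe set has its own level, and for lists each gene's brightest one was read. On simulated data the check was only that planted slopes were recovered on average, which a line fit gives by design. It does not show how many true slopes would be called here. Nothing shows whether the samples are separate animals, so p values measure only the spread between arrays, moderated across probe sets. The 4 arrays limit the precision.

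Every member probe set is reported, with the 3 tested genes of widest span in each pathway list, the 2 nearest genes of each tested member, and selected markers. Genes shown for a promoter motif, and Atf6b's and other second probe sets, were chosen after their values were seen. Members and lists were chosen with earlier results of these data known. Alternatives were other units, filters, floors, scalings and time scales, and leaving out each sample.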

Additional observations from a re-analysis of the deposited data

Results flagged for a closer look

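Dixon's ratio, the gap of the highest or lowest sample to its nearest neighbour over the range of the 4 log2 values, was above the 95% critical value for 4 samples in 6 of 32 probe sets examined (9 members and 23 pathway genes). Chance gives about 1 such result in 20 groups, and the pathway genes were picked for their wide spans. Among the members, the ratio was 0.879 for Atf6, whose 6 h sample lay below the others, and 0.843 for Creb1 102672_g_at, whose 2 h sample lay above them.

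Among the pathway genes it was 0.949 for Map2k6 and 0.839 for Eif2s2, both low at 4 h with that value set to the floor. It was 0.873 for Mapk8ip1, low at 2 h, and 0.87 for Nfil3, low at 6 h.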

How the results depend on the processing

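No member had a called slope under any of the 15 alternatives. No probe set at all was called with all 4 samples. Leaving out 1 sample gave 0 to 18 called probe sets, 18 without the 1 h sample, each from lines with 1 residual degree of freedom. For Atf6 the slope ran from −0.4 (per unit of log2 hour) to −0.2 with all samples and from −0.28 to −0.05 with 1 left out. The ranges with 1 sample left out were −0.24 to 0.12 for Crem, −0.39 to 0.07 for Atf2 and −0.11 to 0.06 for Atf4. The sign turned for Crem (−0.24) and Atf4 (0.06) without the 6 h sample and for Atf2 without the 1 h (0.07) or 4 h sample (0.01).

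Some spans moved by more than 1 SD of the log2 values of the 4 arrays. With the floor at the 30th percentile they were 1.41, 1.55 and 1.21 for Creb1 (102673_at, 102672_g_at, 102671_at), 1.19 for Crem 160526_s_at and 1.0 for Atf2 162010_r_at. For Crem 160526_s_at an added constant gave 1.56, for Atf2 162010_r_at a floor at the 10th percentile gave 1.71, and for Atf2 98455_at the mean of both probe sets gave 1.54. With 1 sample left out the spans ran from 1.15 to 2.44 for Creb1 102672_g_at, 1.28 to 2.32 for 102671_at, 1.32 to 2.24 for Atf2 98455_at, 1.06 to 1.25 for 162010_r_at, 1.25 to 1.63 for Atf4 and 1.11 to 2.42 for Atf6.

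Median list slopes with 1 sample left out ran from −0.017 to 0.06 for AP-1 partners (0.05 with the mean of a gene's probe sets), −0.076 to 0.009 for both CREB coactivators and CREB kinases, −0.049 to 0.103 for CRE targets and −0.09 to 0.035 for the eIF2 pathway. Without the 6 h sample the medians of 5 lists turned from negative to positive, at 0.056 for relatives, 0.06 for AP-1 partners, 0.015 for JNK and p38 kinases, 0.103 for CRE targets and 0.034 for ATF4 genes. The causes were not tested. Spans over 2-fold, 1406 as reported, numbered 393 with the filter at the 60th percentile, 3699 without a filter (7 of the 9 members), 741 with the highest and 878 with the mean of a gene's probe sets, and 787 without the 4 h sample. Unadjusted p values under 0.05, 136 as reported, numbered 68 and 327 with the stricter filter and without one, 205 without the 1 h sample and 615 without the 6 h sample. No paired analysis was possible because there is 1 group, with 1 sample at each hour.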
